A study of Mus musculus with 6 samples.

Results

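The cells described here are the injured Tbx18-lineage cells that the authors' clustering placed in cluster 4, which their annotation calls vascular-genic. They were taken by the authors' own labels, as every cell of cluster 4 from the physical injury or the ischemic injury library of the Tbx18 line. The rule gave 492 cells, with 349 in the physical injury library and 143 in the ischemic one, of 17033 cells in the series, 6578 cells of the Tbx18 line and 5892 injured cells of that line. The cluster held 9.08% of the 3845 cells in the physical injury library (95% interval 8.19 to 10.0) and 6.99% of the 2047 cells in the ischemic injury library (5.92 to 8.18). In the naive library the same cluster number covered 157 of 686 cells, or 22.9% (19.8 to 26.2). All shares carry exact Clopper-Pearson intervals and all levels exact Poisson intervals, which cover counting error only.

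All 3 libraries came from Tbx18-CreERT2/Ai14-flx mice aged 3 to 4 months, in which tamoxifen lets the Tbx18 promoter's Cre switch on the red reporter tdTomato. Mice of the injured groups had tamoxifen 7 days before surgery and were collected 3 days after it, and naive mice were collected 10 days after tamoxifen without surgery. Ischemic injury was a cortical injection of the vasoconstrictors endothelin-1 and L-NAME, and physical injury was the same injection with saline. Cortex cells that were tdTomato-positive and DAPI-negative, that is, labelled and alive, were sorted and made into 10x Genomics libraries. Each group was 1 pooled library, so nothing below is a test between animals, no p-value is given, and injury, animals, sorting day and library cannot be told apart. The tdTomato transcript is not among the 21008 genes of the table used here, so the reporter was not checked.

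Tbx18 is a T-box transcription factor made in adult brain by pericytes and by vascular smooth muscle, the mural cells that wrap capillaries and arterioles, and by fibroblasts of the vessel sheath and the meninges. The meninges are built from fibroblasts and from flatter barrier cells of the arachnoid joined by cadherins, claudins and connexins, and they house resident macrophages. Scar-forming cells after brain injury are known for collagens, for the contractile genes Acta2 and Tagln, and for galectins, S100 proteins and osteopontin.

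The injured cells of the cluster carried few pericyte transcripts. Vtn, the matrix protein vitronectin of pericytes, stood at 7549 counts per 1000000 UMIs (CPM; 7237 to 7871) in the naive cells of the cluster, at 37.7 CPM (30.8 to 45.7) after physical injury and at 9.98 CPM (5.32 to 17.1) after ischemic injury. Pdgfrb, the PDGF receptor of mural cells, stood at 645 CPM in naive cells, 22.7 CPM after physical injury and 12.3 CPM after ischemic injury. Cldn5, a tight-junction protein of endothelium, stood at 656 CPM in naive cells, 58.9 CPM after physical injury and 69.9 CPM after ischemic injury. Both injured libraries were thus far below the naive library for these genes. Vtn was lower after ischemic than after physical injury, with intervals apart, but it was found in only 38 of 492 injured cells. In sub-cluster 0, described below, 61.8% of the Vtn UMIs lay in 5 cells, a spread between cells that these intervals do not cover. Over the 8 pericyte markers listed, the summed level was 16100 CPM in naive cells, 133 CPM after physical injury and 26.1 CPM after ischemic injury, with Abcc9, a potassium channel subunit of pericytes, at 0 in both injured libraries. The naive and injured cells that share the cluster number therefore differed in their defining genes. Listed markers of neutrophils, lymphocytes, oligodendrocyte precursors and neurons were near 0, at no more than 16.9 CPM summed over each list in either injured library. Other genes named for the cluster did not fall in the same way. Acta2 stood at 3512 CPM in naive and 1610 CPM in injured cells, and Spp1 at 302 and 1458 CPM. Since Vtn, Pdgfrb and Cldn5 were low, the injured cells are called by their cluster number, 4, below.

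Tbx18 itself was at 75.5 CPM in the naive cells (47.3 to 114), 45.8 CPM after physical injury (38.1 to 54.5) and 24.6 CPM after ischemic injury (16.8 to 34.7). Cspg4, which encodes the proteoglycan NG2, was at 326 CPM in the naive cells, 12.4 CPM after physical injury and 9.98 CPM after ischemic injury. Among the injured cells, Tbx18 was highest in the meningeal border-like cells described below (122 and 107 CPM in sub-clusters 2 and 4). It was low in sub-clusters 0 and 5 (4.82 and 2.42 CPM) and in the macrophage-like cells (4.04 CPM in sub-cluster 3). Its level was 93.1 CPM in cluster 1, the smooth muscle cluster of the same injured libraries, and 393 CPM in cluster 5, the fibroblast cluster.

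The 492 cells were clustered again among themselves into 6 sub-clusters, which the authors' table does not hold. The paper also divided its vascular-genic cells further. It reported no vascular-genic pericyte subcluster after either injury, with smooth muscle cells, microglia and fibroblasts in its place. Sub-clusters 0 (179 cells), 1 (80 cells), 2 (75 cells), 3 (63 cells), 4 (57 cells) and 5 (38 cells) differed strongly in depth. The median was 9277 unique molecular identifiers (UMIs, single captured transcripts) per cell in sub-cluster 0, 2836.5 in sub-cluster 1, 8597 in sub-cluster 2, 2800 in sub-cluster 3, 8914 in sub-cluster 4 and 9537 in sub-cluster 5. Over all members it was 6756 after physical and 8461 after ischemic injury, from 2731392 and 1302064 UMIs in all. Genes that set a sub-cluster apart also made it, so the levels that follow describe the sub-clusters and are no test of them.

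**Figure D1:**
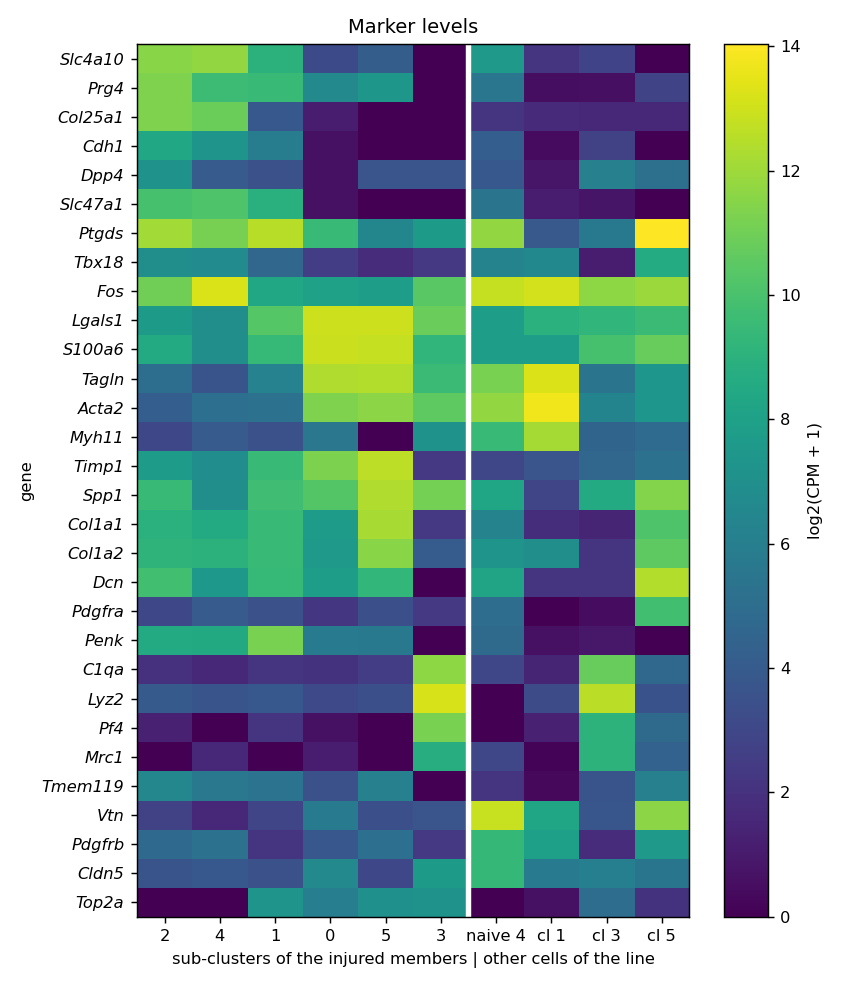
Level of marker genes (rows) as log2(CPM + 1), by color, in the 6 sub-clusters of the injured cells of cluster 4 (left of the white line) and in the naive cells of cluster 4 and the injured cells of clusters 1, 3 and 5 (right). Slc4a10, Prg4 and Col25a1 stand high in sub-clusters 2 and 4, Lgals1 and Tagln in sub-clusters 0 and 5, and Vtn and Pdgfrb stand high in the naive cells and low in all 6 sub-clusters.

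The 6 markers of cluster 4 were spread unevenly, with Slc4a10, Prg4 and Col25a1 highest in sub-clusters 2 and 4 and Tagln and Lgals1 highest in sub-clusters 0 and 5. Slc4a10 (chr2:62046462-62326730, plus strand, GRCm38), a sodium bicarbonate transporter of barrier epithelia, stood at 2975 CPM in sub-cluster 2 (2847 to 3107), 3427 CPM in sub-cluster 4 (3270 to 3589), 518 CPM in sub-cluster 1 and at most 16.9 CPM in sub-clusters 0, 3 and 5. After thinning each cell to 1000 UMIs, it was detected in 79.7% of the cells of sub-cluster 2 (68.8 to 88.2), 89.5% of sub-cluster 4, 39.7% of sub-cluster 1 and 0 cells of the rest. Col25a1 (chr3:130131501-130599877, plus strand), a membrane collagen, stood at 2566 CPM in sub-cluster 2 and 1871 CPM in sub-cluster 4 but at 13.4 CPM in sub-cluster 1. Both genes were found together in 67 of 75 cells of sub-cluster 2 and in 48 of 57 cells of sub-cluster 4. Prg4 (chr1:150449412-150466165, minus strand), the lubricating proteoglycan lubricin, stood at 2603 CPM in sub-cluster 2 and 787 CPM in sub-cluster 4, with 742 CPM in sub-cluster 1. Sub-cluster 1 thus shared Slc4a10 and Prg4 with sub-clusters 2 and 4 but held almost none of their Col25a1.

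Tagln (chr9:45929619-45936058, minus strand), the actin-binding protein transgelin of contractile cells, stood at 5323 CPM in sub-cluster 0 (5219 to 5428), 5387 CPM in sub-cluster 5 (5165 to 5615) and 32.3 and 11.5 CPM in sub-clusters 2 and 4. Lgals1 (chr15:78926725-78930465, plus strand), galectin-1, stood at 8060 CPM in sub-cluster 0, 8035 CPM in sub-cluster 5, 1847 CPM in sub-cluster 3 and 1290 CPM in sub-cluster 1, where it was detected in 59.0% of the thinned cells. Spp1 (chr5:104435118-104441050, plus strand), the secreted phosphoprotein osteopontin, stood at 5343 CPM in sub-cluster 5 and was present in 38 of its 38 cells. It stood at 1230 CPM in sub-cluster 0 and 736 CPM in sub-cluster 2, and at 1000 UMIs it was detected in 37.1% and 39.2% of their cells. Its 2219 CPM in sub-cluster 3 came from 23 of 63 cells, with 44.4% of the UMIs in 1 cell.

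Sub-clusters 2 and 4 were meningeal border-like. Of 13 listed meningeal border genes, 12 reached 50 CPM in these 132 cells or in fibroblast cluster 5 of the injured libraries. Of those 12, 10 were at least 2-fold higher than in cluster 5 and 2 at least 2-fold lower, with a median log2 ratio of 4.81, against 15.9% higher and 15.5% lower of all 4985 genes compared and a median of -0.07. The higher genes were the transporter genes Slc4a10 and Slc47a1, the junction genes Cdh1, Cldn11, Gjb2 and Gjb6, the retinoic acid binding protein gene Crabp2, the surface peptidase gene Dpp4, and Prg4 and Col25a1. Cdh1, epithelial cadherin, stood at 340 CPM in sub-cluster 2 and 155 CPM in sub-cluster 4, against at most 60.2 CPM in the other sub-clusters. Slc47a1, an organic cation exporter, stood at 999 CPM in sub-cluster 2, 1143 CPM in sub-cluster 4 and 471 CPM in sub-cluster 1. The 2 lower genes were Aldh1a2, a retinoic acid synthesis enzyme, and Ptgds, prostaglandin D synthase, which stood at 4412 CPM in sub-cluster 2 and 2322 CPM in sub-cluster 4 against 16800 CPM in cluster 5.

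Basement membrane genes and most fibroblast markers were lower in these cells than in cluster 5, where over all 4985 genes compared 15.9% were higher and 15.5% lower. Of 15 compared basement membrane genes 14 were at least 2-fold lower and 0 higher (median log2 ratio -2.99), and of 10 fibroblast markers 9 were lower and 1, the fibulin gene Fbln1, higher (median -2.17). Of 15 fibrillar collagen and processing genes 2 were higher and 8 lower, and of 17 matrix remodelling genes 5 (Timp1, Timp2, Adam12, Fn1 and Thbs1) were higher and 7 lower. Of 14 TGF-beta and bone morphogenetic protein genes, 7 were at least 2-fold higher than in cluster 5 and 2 (Bmp2 and Bmp7) lower. Among the higher ones, the secreted factors Bmp4 and Bmp5 stood at 435 and 481 CPM in sub-cluster 2 and at 262 and 323 CPM in sub-cluster 4, against 105 and 109 CPM in cluster 5. Mural and mesenchymal transcription factors went both ways, with Foxc2 and Tbx15 among those at least 2-fold higher than in cluster 5 and Tbx18, Foxf2, Nr2f2 and Zic1 at least 2-fold lower. Foxc2, a forkhead factor, stood at 246 CPM in sub-cluster 2 and 170 CPM in sub-cluster 4, against 23.2 CPM in cluster 5, and Tbx15, a T-box factor, at 367 and 487 CPM against 86.4 CPM.

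Sub-clusters 2 and 4 differed from each other in immediate early and heat shock genes, which are switched on within minutes by stimulation, injury or tissue dissociation. All 15 of these listed genes were at least 2-fold higher in sub-cluster 4 than in sub-cluster 2 (median log2 ratio 2.34), against 5.91% higher and 5.15% lower of all 4487 genes compared. Of 11 meningeal border genes 5 (Prg4, Cdh1, Cldn11, Dpp4 and Gjb2) were lower in sub-cluster 4 and 0 higher (median -0.93). Fos, part of the AP-1 transcription factor, stood at 9680 CPM in sub-cluster 4 (9415 to 9950) and 2013 CPM in sub-cluster 2 (1908 to 2123), and Egr1, a zinc finger factor, at 1946 and 220 CPM. When these genes were left out of the clustering, all 75 and 57 cells formed 1 cluster. They are therefore counted together below. Whether dissociation played a part in the difference was not tested.

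Sub-cluster 0, the largest, held the contractile transcripts Acta2 and Tagln but resembled neither smooth muscle nor pericytes closely, and it is left unnamed. Its 10 leading genes held 1 meningeal border marker (Aldh1a2) and 1 pericyte marker (Vtn) but no listed smooth muscle marker. Acta2, smooth muscle alpha-actin, stood at 2564 CPM (2492 to 2638) and was found with Tagln in 145 of its 179 cells. In cluster 1, the smooth muscle cluster, Acta2 stood at 13525 CPM and Tagln at 10078 CPM. Genes of mature smooth muscle were further apart. Myh11, smooth muscle myosin heavy chain, stood at 45.5 CPM against 4539 CPM in cluster 1, Myl9, a myosin light chain, at 402 against 6746 CPM, and Pln, the calcium pump regulator phospholamban, at 9.63 against 1118 CPM. Of 10 smooth muscle markers compared, 0 were higher and 9 were at least 2-fold lower than in cluster 1 (median log2 ratio -4.26), against 23% higher and 46.4% lower of all 3874 genes (median -0.77). Tagln was the member within 2-fold.

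**Figure D2:**
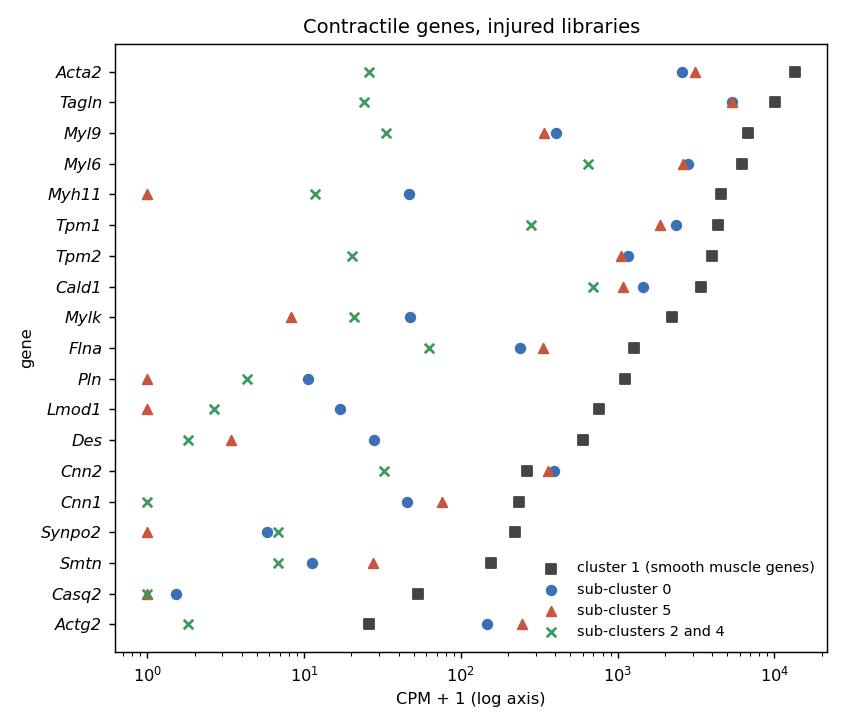
Level of 19 contractile genes as CPM + 1 on a log axis, in the injured cells of cluster 1 (squares), sub-cluster 0 (circles), sub-cluster 5 (triangles) and sub-clusters 2 and 4 together (crosses), ordered by the level in cluster 1. Sub-clusters 0 and 5 lie within 2-fold of cluster 1 for Tagln and far from it for Myh11, which stands at 45.5 CPM in sub-cluster 0, at 0 in sub-cluster 5 and at 4539 CPM in cluster 1.

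Galectin, S100, annexin and vimentin genes went the other way. All 10 compared were at least 2-fold higher in sub-cluster 0 than in cluster 1 (median log2 ratio 2.57). S100a6, a calcium-binding protein, stood at 7822 CPM in sub-cluster 0 and 7096 CPM in sub-cluster 5, and Vim, the intermediate filament vimentin, at 7587 and 7471 CPM against 2892 CPM in cluster 1. Timp1, an inhibitor of matrix metalloproteinases, stood at 2471 CPM in sub-cluster 0 (2400 to 2543) and 6375 CPM in sub-cluster 5 (6133 to 6623). Spp1 was at 1230 CPM in sub-cluster 0 and 6.56 CPM in cluster 1. Actg2, the gamma-actin of enteric smooth muscle, was the 1 contractile gene of 19 that was at least 2-fold higher than in cluster 1, at 146 against 24.9 CPM. Of the other contractile genes, 15 were at least 2-fold lower.

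Other gene groups separated sub-cluster 0 from cluster 1 as well. Of 15 immediate early and heat shock genes, 14 were at least 2-fold lower (median log2 ratio -4.43), and of 13 mural and mesenchymal transcription factors 12 were lower (median -4.02), among them Tbx18 and Myocd, the smooth muscle coactivator myocardin, at 3.21 against 271 CPM, where 46.4% of all genes compared were lower. Crabp1, a retinoic acid binding protein, stood at 182 CPM in sub-cluster 0, where it was found in 24.6% of the cells, with 49.4% of the UMIs in 5 cells. It was found in 18.4% of the cells of sub-cluster 5 and was at 0 in sub-clusters 1 to 4. The median share of UMIs from ribosomal protein genes was 32.6% in sub-cluster 0 and 26.4% in sub-cluster 5, against 7.24% in cluster 1 and 4.74% and 4.14% in sub-clusters 2 and 4. In cells thinned to 1000 UMIs a median of 510.5 genes was detected in sub-cluster 0, 561.5 in sub-cluster 5, 703 in sub-clusters 2 and 4 and 656 in cluster 1. The part of RNA quality in these levels, and whether these cells went through the same preparation as the rest, was not tested.

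Sub-cluster 5 combined the contractile genes of sub-cluster 0 with fibrillar collagens. No contractile or galectin list gene differed by 2-fold between sub-clusters 0 and 5 (0 of 11 and 0 of 10), whereas all 16 fibrillar collagen and collagen-processing genes compared were at least 2-fold lower in sub-cluster 0 (median log2 ratio -2.37), against 1.84% higher and 13% lower of all 2496 genes. Col1a1, the alpha-1 chain of type I collagen, stood at 4755 CPM in sub-cluster 5 (4547 to 4970) and 219 CPM in sub-cluster 0, and it was detected in 38 of 38 cells. The level in sub-cluster 5 leaned on 1 cell, which held 60.5% of the Col1a1 UMIs, while the median cell held 17.5 UMIs. The collagen cross-linking enzyme gene Lox stood at 617 CPM in sub-cluster 5 and 116 CPM in sub-cluster 0, and Cthrc1, a secreted protein of matrix-forming fibroblasts, at 1361 and 316 CPM. With immediate early genes left out of the clustering, 37 of the 38 cells of sub-cluster 5 joined 104 of the 179 cells of sub-cluster 0, so the border between them is not firm.

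Against fibroblast cluster 5, sub-cluster 5 was higher in some collagen-processing genes and lower in basement membrane genes. Of 10 fibroblast markers, 1 (Col1a1) was at least 2-fold higher and 4 (Dcn, Lum, Pdgfra and Col15a1) lower, with a median log2 ratio of 0.33 and a summed level of 11130 against 12564 CPM. Without the cell with the most Col1a1 UMIs, 0 were higher and the same 4 lower, Col1a1 stood at 1970 against 1172 CPM, and the summed level was 6208 CPM. Of 17 fibrillar collagen and processing genes, 7 were at least 2-fold higher and 2 lower (median log2 ratio 0.90), or 5 (Lox, Loxl1, Loxl2, Serpinh1 and Bmp1, with no collagen chain among them) and 2 without that cell, against 20% higher and 51.9% lower of all 4700 genes (median -1.16). Of 15 basement membrane genes 0 were higher and 14 lower (median -1.96). Dcn, the collagen-binding proteoglycan decorin, stood at 627 CPM against 5572 CPM in cluster 5, Pdgfra, the PDGF receptor of fibroblasts, at 9.68 CPM, and Col15a1, a perivascular fibroblast collagen, at 0. Of 11 contractile genes, 8 were at least 2-fold higher and 0 lower. The group is left unnamed, since the defining fibroblast markers Pdgfra and Col15a1 were near or at 0.

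Sub-cluster 3 was macrophage-like. C1qa, a subunit of complement component C1q made by macrophages, stood at 3222 CPM (3002 to 3453) in sub-cluster 3 and at no more than 4.84 CPM in the other 5. At 1000 UMIs it was detected in 80.8% of its cells (67.5 to 90.4), against 51.8% in cluster 3, the myeloid cluster of the same libraries. Pf4, a chemokine typical of border macrophages, stood at 2353 CPM against 546 CPM in cluster 3, and Apoe, a lipid carrier, at 22520 against 11938 CPM. Genes of resident microglia were scarce. P2ry12, a purine receptor, stood at 52.6 CPM and the membrane protein gene Tmem119 at 0.

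Of 10 macrophage markers, 3 were at least 2-fold higher in sub-cluster 3 than in cluster 3 and 0 lower (median log2 ratio 0.81), and of 6 border macrophage markers 3 (Pf4, the scavenger receptor gene Cd163 and the carbonyl reductase gene Cbr2) were higher and 0 lower (median 0.98), against 14.4% higher and 36.2% lower of all 3656 genes. All 6 dendritic and antigen presentation genes were at least 2-fold lower (median -1.46), with Cd74, the invariant chain of class II antigen presentation, at 4726 against 12800 CPM. Ccr2, a chemokine receptor of monocytes, was at 109 against 511 CPM. Of the smooth muscle markers, 8 passed 2-fold in the same comparison, but they came from very few cells, since 98.1% of the Acta2 UMIs and 97.9% of the Tagln UMIs of sub-cluster 3 lay in 1 cell. Macrophage transcripts were not spread over sub-cluster 0, since C1qa was found in 6 of its 179 cells.

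Sub-cluster 1 is left unnamed. Its cells were shallow, and the median share of mitochondrial UMIs was 8.49%, against 2.66% to 4.48% in the other sub-clusters, with 86.3% of its cells over 5%. Compared with sub-clusters 2 and 4, 0 of 11 meningeal border genes were at least 2-fold higher and 6 were lower, against 23% higher and 39.1% lower of all 4765 genes, and 14 of 15 immediate early and heat shock genes were lower (median log2 ratio -4.05). Penk, the opioid precursor proenkephalin, stood at 2336 CPM in 70% of its cells, and Ptgds at 5976 CPM. Its most extreme leading gene, Ttr, the transthyretin of choroid plexus, stood at 4302 CPM with 99.5% of the UMIs in 1 cell, and Gfap, an astrocyte filament, was found in 1 cell of 80. Leaving out the cells over 5% mitochondrial UMIs is among the alternatives in the closing section.

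After thinning, cells with transcripts of proliferation were found in sub-clusters 0, 1, 3 and 5. At 1000 UMIs per cell, Mki67 or Top2a, a proliferation antigen and a topoisomerase of dividing cells, was found in 12 of 178 cells of sub-cluster 0 (6.74%, 3.53 to 11.5), 6 of 38 cells of sub-cluster 5 (15.8%, 6.02 to 31.3), 4 of 52 cells of sub-cluster 3 (7.69%, 2.14 to 18.5) and 3 of 78 cells of sub-cluster 1 (3.85%, 0.80 to 10.8). None of the 131 thinned cells of sub-clusters 2 and 4 held either (upper bound 2.78%), nor did any of 867 cells of cluster 1 (upper bound 0.425%), while 10 of 581 cells of cluster 3 (1.72%, 0.828 to 3.14) and 1 of 123 cells of cluster 5 did (0.813%, 0.0206 to 4.45). The share in sub-cluster 0 was therefore above that in cluster 1 beyond counting error. Without thinning it was 27.9% in sub-cluster 0 (median depth 9277 UMIs) and 0.801% in cluster 1 (10433.5 UMIs), and 9.52% in sub-cluster 3 (2800 UMIs) and 14.8% in cluster 3 (13585 UMIs), where the order turned with thinning, so none is read. At full depth 1 of 132 cells of sub-clusters 2 and 4 held either gene (0.758%). Phase calls from the same thinned counts put 38.2% of sub-cluster 0, 50% of sub-cluster 5 and 9.16% of sub-clusters 2 and 4 in G2M, but 10.1% of cluster 1 was also called G2M with no Mki67 or Top2a, so no division was read from phase calls.

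**Figure D3:**
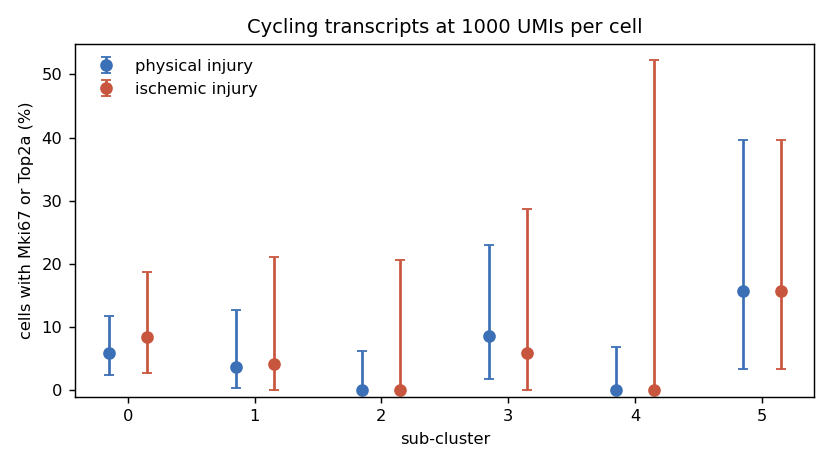
Share of cells with Mki67 or Top2a after thinning to 1000 UMIs, in percent with exact 95% binomial intervals, by sub-cluster and library. No cell of sub-clusters 2 and 4 held either gene, and the intervals of the 2 libraries overlap in every sub-cluster.

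The 2 injury libraries held the sub-clusters in different shares. Sub-clusters 2 and 4 together made up 31.8% of the members after physical injury (26.9 to 37.0) and 14.7% after ischemic injury (9.33 to 21.6), a difference of -17.1 percentage points (-24.6 to -8.70). Sub-clusters 0 and 5 together made up 39.5% (34.4 to 44.9) and 55.2% (46.7 to 63.6), a difference of 15.7 points (5.63 to 25.5). For both sets the difference was larger than counting error. Macrophage-like sub-cluster 3 made up 12.6% and 13.3%, a difference of 0.679 points (-5.76 to 8.13), and sub-cluster 1 16.0% and 16.8%, a difference of 0.737 points (-6.41 to 8.79). For these the interval of the difference spans 0. These shares are of the members and so depend on each other. Of all cells of the library, sub-clusters 0 and 5 made up 3.59% (3.02 to 4.23) after physical and 3.86% (3.07 to 4.79) after ischemic injury, with intervals that overlap, and sub-clusters 2 and 4 made up 2.89% (2.38 to 3.47) and 1.03% (0.636 to 1.56). When each member was instead assigned by its highest marker list, the sub-cluster 0 and 5 class made up 38.1% and 39.9% of the members and the sub-cluster 2 and 4 class 25.8% and 16.1%, so the difference for sub-clusters 0 and 5 was not kept. The sub-cluster 3 class then made up a larger share of the members in both libraries, given in the closing section.

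**Figure D4:**
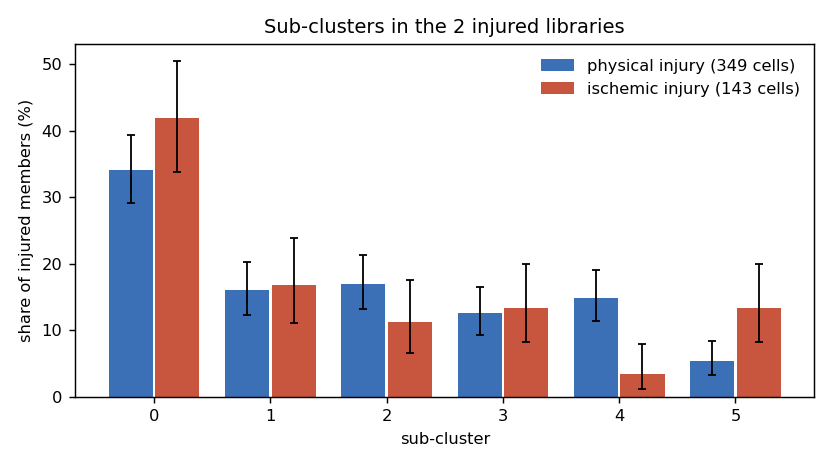
Share of each sub-cluster among the members of each injury library, in percent with exact 95% binomial intervals, for 349 cells after physical and 143 after ischemic injury. Sub-cluster 4 stands at 14.9% and 3.50%, and sub-cluster 5 at 5.44% and 13.3%.

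Summed over all members, few genes were higher after ischemic than after physical injury. Of 3227 genes that reached 50 CPM in either library, 31 (0.961%) were at least 2-fold higher and 263 (8.15%) at least 2-fold lower after ischemic injury, on the log2(CPM + 1) scale, with a median of -0.07. TMM factors, which scale by the bulk of genes, moved the ratios up by 0.17 and left 146 genes lower. Of the 6 markers, Spp1 was at 1065 CPM (1027 to 1104) after physical and 2281 CPM (2200 to 2365) after ischemic injury (log2 ratio 1.10). Without 1 ischemic cell, the Bglap cell described below, Spp1 was at 2119 CPM after ischemic injury (log2 ratio 0.99), within 2-fold. Col25a1 was at 815 and 391 CPM, a log2 ratio of -1.06. Slc4a10 was at 1149 and 660 CPM, Prg4 at 673 and 633 CPM, Lgals1 at 4369 and 5752 CPM and Tagln at 2773 and 3713 CPM, all within 2-fold.

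Much of this followed the sub-cluster shares. With every sub-cluster given equal weight in both libraries, the log2 ratio of Slc4a10 was -0.04 in place of -0.80, of Col25a1 -0.28, of Tagln -0.03, of Fos -0.20 in place of -1.53 and of Spp1 0.77, and 40 genes were at least 2-fold lower in place of 263. These values rest in part on few cells. The ischemic library held 5 cells of sub-cluster 4 and 16, 19 and 19 cells of sub-clusters 2, 3 and 5. Within sub-cluster 0 Tagln stood at 5319 CPM after physical and 5329 CPM after ischemic injury, and within sub-clusters 2 and 4 Slc4a10 stood at 3173 and 3165 CPM. Spp1 was at 953 and 1760 CPM in sub-cluster 0 and at 5316 and 5366 CPM in sub-cluster 5. It was at 657 and 938 CPM in sub-cluster 2, or 595 and 938 CPM without the cell with the most Spp1. Single cells weighed more in the rest. It was at 75.6 and 463 CPM in sub-cluster 4, or 117 CPM after ischemic injury without its top cell. It was at 711 and 1189 CPM in sub-cluster 1, or 664 CPM after ischemic injury without the cell with the most Spp1, and at 1466 and 3607 CPM in sub-cluster 3, or 883 CPM without that cell, so that in sub-clusters 1 and 3 it was then not higher after ischemic injury. The equal-weight ratio of Spp1 includes these cells.

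Several of the largest ratios rested on single cells. Bglap and Bglap2, which encode osteocalcin of bone-forming cells, had log2 ratios of 9.24 and 8.53, and both came from 1 ischemic cell of sub-cluster 5 with 19179 UMIs, of which 788 were Bglap and 1188 were Col1a1. Without that cell the log2 ratio of Col1a1 was 0.59 in place of 1.87, and of the fibroblast list 0 genes were at least 2-fold higher in place of 3. Its summed level was 2076 CPM after physical injury and 4069 CPM after ischemic injury, or 2452 CPM without that cell. Chil3, a chitinase-like protein of macrophages, went from 4.75 to -1.07 and Il1b, interleukin-1 beta, from 2.04 to 0.75 when the cell with the most UMIs was left out. More evenly carried was S100a4, a calcium-binding protein, found in 22 of 143 ischemic and 15 of 349 physical cells, at 84.5 and 16.1 CPM (log2 ratio 2.32, or 1.84 without its top cell).

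**Figure D5:**
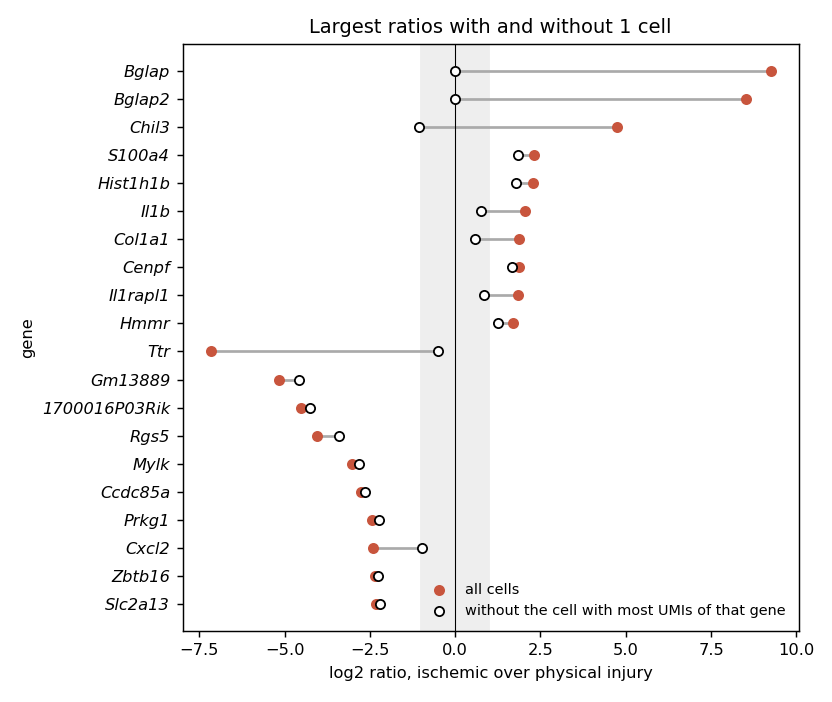
Log2 ratio of ischemic over physical injury for the 10 genes with the largest ratios in each direction, over all members (filled) and without the cell with the most UMIs of that gene (open), with the range within 2-fold shaded. Bglap, Bglap2 and Ttr move into the shaded range, while S100a4, Rgs5 and Mylk stay outside it.

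Of the genes with the largest negative ratios, several stayed at least 2-fold lower without their top cell. Rgs5, a signalling regulator of pericytes, was at 53.5 CPM after physical and 2.30 CPM after ischemic injury, Mylk, myosin light chain kinase, at 50.5 and 5.38 CPM, and Prkg1, a kinase that relaxes smooth muscle, at 142 and 25.3 CPM, with log2 ratios of -4.04, -3.01 and -2.44. Zbtb16, a transcriptional repressor, was at 82.7 and 15.4 CPM. Of 14 immediate early and heat shock genes compared, 11 were at least 2-fold lower and 0 higher (median log2 ratio -1.27), with Fos at 2343 and 812 CPM. With equal sub-cluster weights only Hspa1a of these 14 stayed 2-fold lower (median -0.12). Of 6 cycling genes, Top2a and the mitotic spindle genes Cenpf and Tpx2 were at least 2-fold higher and 0 lower (median 0.98), with Top2a, in 9.17% of physical and 17.5% of ischemic cells, at 39.2 CPM (32.1 to 47.3) and 112 CPM (94.7 to 132). At 1000 UMIs the share of cells with Mki67 or Top2a was 4.45% (2.51 to 7.24) and 7.14% (3.48 to 12.7), so a difference was not detectable at this depth. Without thinning the shares were 12.3% and 25.2%. Of 8 macrophage markers 0 passed 2-fold in either direction (summed level 1433 and 2160 CPM), and of 11 meningeal border genes 1, Col25a1, was lower and 0 were higher.

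Within sub-cluster 0 alone, where both libraries had enough cells, 12 of 2267 genes (0.529%) were at least 2-fold higher and 50 (2.21%) at least 2-fold lower after ischemic injury, with a median of 0.00. Of 9 compared, 8 immediate early and heat shock genes were at least 2-fold lower (median log2 ratio -3.47). Fos was at 373 CPM (340 to 409) and 32.7 CPM (20.3 to 50.04), though it was found in 36.1% and 26.7% of the cells and 82.5% of its UMIs in sub-cluster 0 lay in 5 cells. Myh11 was at 67.6 and 3.12 CPM and Mylk at 69.3 and 3.12 CPM, while Acta2 was at 2691 and 2321 CPM. The pericyte genes Rgs5, at 101 and 3.12 CPM, and Vtn, at 72.5 and 20.3 CPM, were lower too. These too lay in few cells, with 83.5% of the Myh11, 84.1% of the Rgs5 and 61.8% of the Vtn UMIs of sub-cluster 0 in 5 cells. Top2a was at 39.1 and 108 CPM, and Mmp10, a matrix metalloproteinase, had the largest positive log2 ratio, 3.71. Mmp10 was found in 4 of 119 physical and 6 of 60 ischemic cells. Of its ischemic UMIs 34.3% lay in 1 cell, without which the log2 ratio was 3.14.

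Within sub-cluster 1, which held 56 physical and 24 ischemic cells, 586 of 3652 genes (16%) were at least 2-fold higher and 402 (11%) at least 2-fold lower, or 360 higher and 547 lower with TMM factors, which turns the balance. All 8 cycling genes compared were higher, but Mki67 was found in 2 of its 80 cells and Top2a in 4, with 54.3% of the Top2a UMIs in 1 cell. Of its largest ratios, those of Mmp3, St6galnac3, Gfap and Car2 came from 1 cell each, while Mat2b was found in 14 of 56 physical and 0 of 24 ischemic cells.

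Set against the naive cells of the cluster, the injured cells differed in 46.7% of the 4413 genes compared, 733 (16.6%) at least 2-fold higher and 1330 (30.1%) at least 2-fold lower, with a median of -0.30. TMM factors moved all ratios up by 0.52 and gave 1373 genes higher and 761 lower, which turns the balance of the calls. All 8 pericyte genes were at least 2-fold lower, and the largest negative ratios included Atp13a5, a transporter typical of brain pericytes, at 848 CPM in naive cells and 0.366 and 0.768 CPM after physical and ischemic injury. The endothelial list (7 of 8 genes), the basement membrane list (11 of 12) and the immediate early and heat shock list (14 of 15) were also lower. Of 10 smooth muscle markers 7 were lower and 0 higher, and of 18 contractile genes 10 were lower and 1, Actg2, higher. Of the lists that were higher, 10 of 11 meningeal border genes, 7 of 7 macrophage genes, 5 of 7 fibroblast genes and 9 of 11 galectin, S100, annexin and vimentin genes passed 2-fold. Timp1 was at 6.87 CPM in naive cells (0.832 to 24.8), 1741 CPM after physical and 2233 CPM after ischemic injury. Lyz2, the lysozyme of macrophages, was at 0 in naive cells and at 466 and 836 CPM after injury, and Prrx2, a mesenchymal homeobox factor, at 0, 134 and 130 CPM. When naive and injured cells were clustered together, without integration of the libraries, 153 of the 157 naive cells formed a cluster that held 3 injured cells. These ratios therefore set beside each other cells that clustered apart. The median was 1724 UMIs per cell in the naive and 7042.5 in the injured cells. The part of library and depth in the split was not tested.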

How the data were processed

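Single-cell UMI counts of sorted Tbx18-lineage cells, with cluster labels, were used as deposited. The authors aligned reads with Cell Ranger (version 7.0.0 in the submitters' processing notes, build mm10/GRCm38) and integrated and clustered cells in Seurat after filters on genes per cell, depth and mitochondrial share (12%). The members and gene lists were chosen with earlier results of these data known. Counts were summed per group and divided by the total to give CPM. Ratios are log2(CPM + 1) differences over genes with at least 50 CPM in either group, and 2-fold was the limit for counting. With 1 library per group no test was run. Members were clustered again with scanpy 1.11.5 (2000 variable genes, 20 principal components, 15 neighbours, Leiden resolution 0.5). Detection shares are over all cells at full depth unless thinning to 1000 UMIs is stated. TMM factors came from edgeR 4.0.16. The comparison step was tested on simulated data. Named genes were the markers, the study's naming genes, the largest ratios, the leading genes and the most abundant list members. Other genes in the text were named after their values were seen. Scrublet marked 41 of 6578 cells and 7 of 492 members as doublets. None was removed. Of the members, 0 shared a barcode with another library. Results for some genes and lists are not reported here.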

Additional observations from a re-analysis of the deposited data

Results flagged for a closer look

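Among genes compared in both sub-clusters 0 and 1, 6 were past 2-fold in opposite directions between ischemic and physical injury, and for 2 of them the counting intervals of the libraries were apart in both sub-clusters. Mecom, a zinc finger transcription factor, had a log2 ratio of -4.33 in sub-cluster 0 and 6.20 in sub-cluster 1. Ifitm1, an interferon-induced membrane protein, had a log2 ratio of -2.68 in sub-cluster 0 and 1.85 in sub-cluster 1. The difference between the sub-clusters was not tested, since each sub-cluster had 1 library per injury. In sub-cluster 0 Mecom was found in 6 of 119 physical cells and 1 of 60 ischemic cells, with 58.1% of the UMIs in 1 cell. Its ratio in sub-cluster 1 sets 24 ischemic cells, with 96710 UMIs in all, against 56 physical cells. The 1 CPM added before the log weighs on that ratio, so it is no exact fold.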

How the results depend on the processing

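No paired analysis was possible because each group was 1 library. Leaving out the cells over 5% mitochondrial UMIs, the cell with the most Bglap or Spp1, and immediate early genes in the clustering were chosen after seeing the data. Shares were followed for 4 classes (sub-clusters 0 and 5, 1, 2 and 4, and 3), and these stayed within their intervals under both other Leiden resolutions, with naive cells clustered too, without cell cycle or immediate early genes, within the depth limits and without the highest doublet scores. When each cell was assigned by its highest marker list, sub-clusters 0 and 5 made up 38.1% and 39.9% after physical and ischemic injury, sub-clusters 2 and 4 made up 25.8% and 16.1%, and sub-cluster 3 made up 20.3% and 25.9% after physical and ischemic injury. TMM factors gave 146 genes lower over all members, 360 higher in sub-cluster 1, and 1373 higher and 761 lower against naive cells. A minimum of 20 CPM gave 73 higher and 608 lower over all members, 82 and 245 in sub-cluster 0, 1565 and 1158 in sub-cluster 1, and 1223 and 2453 against naive cells. With no CPM minimum and at least 10 counts the numbers were 264 and 1507, 231 and 978 in sub-cluster 0, and 2694 and 3080 against naive cells. Equal sub-cluster weights left 40 genes lower over all members. The share of cells with Mki67 or Top2a was 2.30% after physical injury at 500 UMIs, and 12.3% and 25.2% after physical and ischemic injury without thinning. As a mean over cells, the summed levels after physical and ischemic injury were 3979 and 5260 CPM for smooth muscle, 7077 and 4733 CPM for meningeal border and 3371 and 4442 CPM for macrophage markers, with 3150 CPM for fibroblast markers after ischemic injury, and 215 CPM for pericyte and 263 CPM for endothelial markers after physical injury. Without cells over 5% mitochondrial UMIs they were 5915 and 7949 CPM for smooth muscle, 1621 and 2279 CPM for fibroblast and 1563 and 2736 CPM for macrophage markers, with 96.6 CPM for pericyte markers after physical injury and 160 CPM for endothelial markers after ischemic injury. Pearson's r across genes, as a description of profiles whose genes are not independent, was 0.667 for sub-cluster 0 and cluster 1, 0.457 for sub-cluster 0 and cluster 5, 0.413 for sub-cluster 5 and cluster 5, 0.782 for sub-cluster 3 and cluster 3 and 0.546 for sub-cluster 2 and cluster 5. These became 0.811, 0.773, 0.733, 0.867 and 0.852 with no minimum, and 0.233, 0.180, 0.162, 0.562 and 0.314 with totals thinned to the same number, so no order of likeness was read from them. Of 380 values for single genes, 7 moved by more than their counting interval, among them Ttr, whose log2 ratio was -0.58 without the highest doublet scores, and Cxcl2, at -0.93 within the depth limits.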

Other observations

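The libraries pooled female and male mice, so a cell can hold Xist, the long noncoding RNA of the inactive X chromosome, or transcripts of the Y chromosome, according to the sex of the mouse. Neither was found in 130 of 179 cells of sub-cluster 0 (72.6%, 65.5 to 79.0), at a median of 9277 UMIs, in 28 of 38 cells of sub-cluster 5 (73.7%, 56.9 to 86.6), at 9537 UMIs, in 70 of 80 cells of sub-cluster 1 (87.5%), at 2836.5 UMIs, and in 48 of 63 cells of sub-cluster 3 (76.2%), at 2800 UMIs. In sub-clusters 2 and 4 both were missing from 4 of 132 cells (3.03%, 0.832 to 7.58), at 8814.5 UMIs. The shares were 14.1% in cluster 1, 9.09% in cluster 3 and 19.0% in cluster 5 of the injured libraries. Xist alone was found in 13 of 179 cells of sub-cluster 0 (7.26%) and 96 of 132 cells of sub-clusters 2 and 4 (72.7%), and Y transcripts alone in 33 (18.4%) and 30 (22.7%). At like median UMIs sub-cluster 0 and the meningeal border-like cells thus differed in Xist beyond counting error, in both the physical library (6.72% and 75.7%) and the ischemic library (8.33% and 57.1%), while the intervals for Y transcripts overlapped (13.04 to 24.9 and 15.9 to 30.8). The same cells also differed in the median genes detected after thinning to 1000 UMIs, 510.5 in sub-cluster 0 and 703 in sub-clusters 2 and 4, and in the ribosomal share, 32.6% and 4.36%. The part of RNA quality in these shares, and whether all these cells went through 1 preparation, was not tested.

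Transcripts of class II antigen presentation were found outside the macrophage-like cells. Cd74 was detected in 47.4% of the cells of sub-cluster 4, 45.3% of sub-cluster 2 and 42.5% of sub-cluster 1, at 413, 270 and 598 CPM, against 8.38% of sub-cluster 0 and 15.8% of sub-cluster 5, at 9.63 and 14.5 CPM. C1qa, the macrophage gene, was found in 1.75%, 2.67% and 1.25% of the cells of sub-clusters 4, 2 and 1. In cluster 1 of the same libraries, smooth muscle, Cd74 was detected in 8.92% of the cells, at 10433.5 UMIs in the median. Cd74 and C1qa stood at 4726 and 3222 CPM in sub-cluster 3 and at 12800 and 1743 CPM in cluster 3. The part of free RNA in these levels was not tested.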
